A study of Mus musculus with 6 samples.

Results

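Integrins and laminins were followed in hearts taken at postnatal day 14 from C57BL/6J mice that had received ETX or the vehicle PBS (phosphate-buffered saline) for 1 week. The labels do not spell out ETX and give neither dose nor sex. Each group held 3 hearts called biological replicates, ETX replicates 6, 7 and 10 and PBS replicates 3, 9 and 12, with 1 whole-transcript array of total RNA per heart. The genes were taken by name. They were the genes measured on a transcript cluster of their own whose symbol is that of an integrin alpha chain (Itga with a number or 1 letter), an integrin beta chain (Itgb with a number) or a laminin chain (Lama, Lamb or Lamc with a number). A transcript cluster is a group of probes that are combined into 1 value, and not every cluster belongs to a single gene. The rule gave 33 of the 19938 genes with a cluster of their own, namely 16 integrin alpha chains, 7 integrin beta chains and 10 laminin chains. Some other genes of these families were not analysed here.

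Laminins are cross-shaped trimers of an alpha, a beta and a gamma chain, and they form the sheet of basement membrane that wraps each cardiomyocyte and each capillary. Integrins are pairs of an alpha and a beta chain in the cell membrane. They grip laminin, collagen or fibronectin outside the cell and tie them through talin and vinculin to the actin skeleton inside. Cardiomyocytes bind laminin mainly through the alpha 7 and beta 1 chains and through dystroglycan, whereas the beta 2 and beta 7 chains belong to leukocytes.

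Values are the authors' log2 signals, on which a difference of 1 is a doubling, and levels of different genes are not comparable because each has its own probes. Genes with a mean log2 level over the 6 hearts below 3.45, the lowest 25% of genes, counted as dim and were not tested. This kept 14953 genes and 32 of the 33 integrin and laminin genes. Itgae, the alpha chain that pairs with beta 7, was the dim one, at 3.37 to 3.45 in ETX and 3.37 to 3.42 in PBS. A gene was called where the limma p-value, adjusted by Benjamini-Hochberg over all 14953 genes, lay under 0.05. By that rule 3.56% of all genes were called, 2.43% lower and 1.14% higher in ETX, and 68.1% of the called genes were lower. Centring each array on its median gave 78.6% and a second quantile normalization 58.3%, while a test of all transcript clusters, with or without a gene name, called 337, of which 44.5% were lower. Array medians lay between 4.43 and 4.51.

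2 hearts carried transcripts of lung epithelium. The mean log2 level of the 11 lung markers was 5.74 in PBS replicate 3 and 7.21 in PBS replicate 9, but 3.58 in PBS replicate 12 and 3.68 to 3.71 in the ETX hearts. Atrial markers were high in ETX replicates 6 and 7 (7.06 and 7.14) and in PBS replicate 3 (7.58), and low in ETX replicate 10 (5.82) and in PBS replicates 9 and 12 (5.56 and 5.54). Cardiomyocyte markers averaged 11.90 to 12.03 in ETX and 11.98 to 12.02 in PBS.

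Most integrin and laminin genes were lower in the ETX hearts, by small amounts. Of the 32 tested, 2 were called and fell, Itgb6 and Itga4, where 2.43% of all genes were called lower. No member was called higher, where 1.14% of all genes were. Of the 32 tested genes 25 lay below 0 and 7 above, with a median log2 difference of -0.21, whereas 51.6% of all genes lay below 0 and the median of all genes was -0.0063. Without PBS replicates 3 and 9, and also adjusted for the lung-marker score, 21 of the 32 lay below 0, at a median of -0.18 in both. Both fits lean on PBS replicate 12, because the lung-marker score hardly varied among the ETX hearts. They are therefore not independent checks, here or for the lung-adjusted values of single genes below. At an unadjusted p under 0.05, 14 of the 32 were lower and 0 higher, where 13.1% of all genes were lower and 8.86% higher. In 15 of the 32 every ETX heart lay below every PBS heart, an order that 16.1% of all genes showed. In 1 gene, Lamb3, every ETX heart lay above, against 11.6% of all genes. ETX replicates 6, 7 and 10 were the lowest of the 6 hearts in 9, 6 and 8 of the 32 genes and the highest in 3, 2 and 1. PBS replicates 3, 9 and 12 were the lowest in 2, 1 and 6 and the highest in 9, 10 and 7, so PBS replicate 12 was at either end about equally often. In whole hearts, fewer cells of a type and less RNA per cell cannot be told apart.

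**Figure D1:**
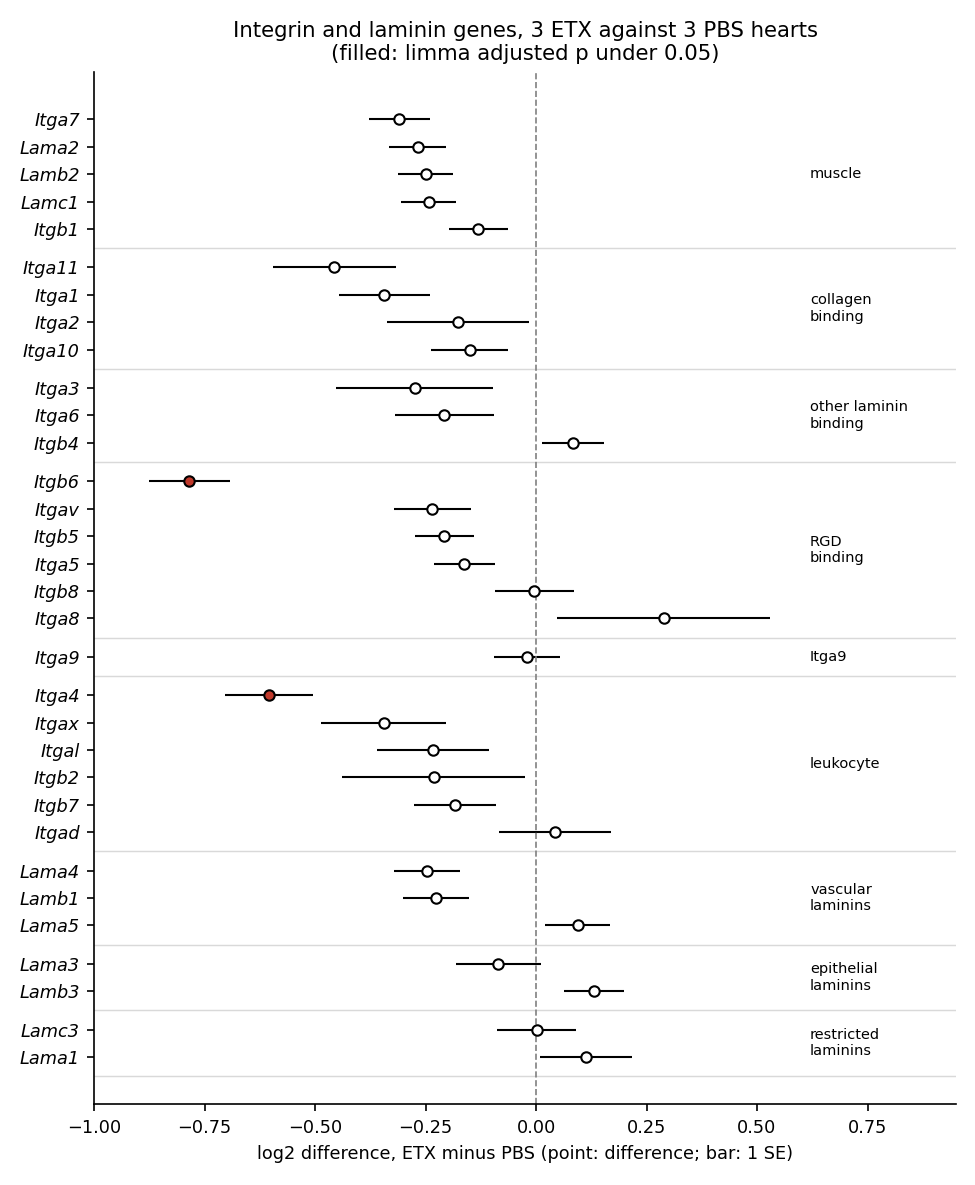
Log2 difference of each tested integrin and laminin gene, ETX minus PBS, on the x axis, with genes down the page by role; points are differences over 3 hearts per group, bars 1 standard error, and filled points passed an adjusted p of 0.05. Itgb6 (-0.79) and Itga4 (-0.60) are the filled points, and 25 of the 32 points lie left of 0.

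**Figure D2:**
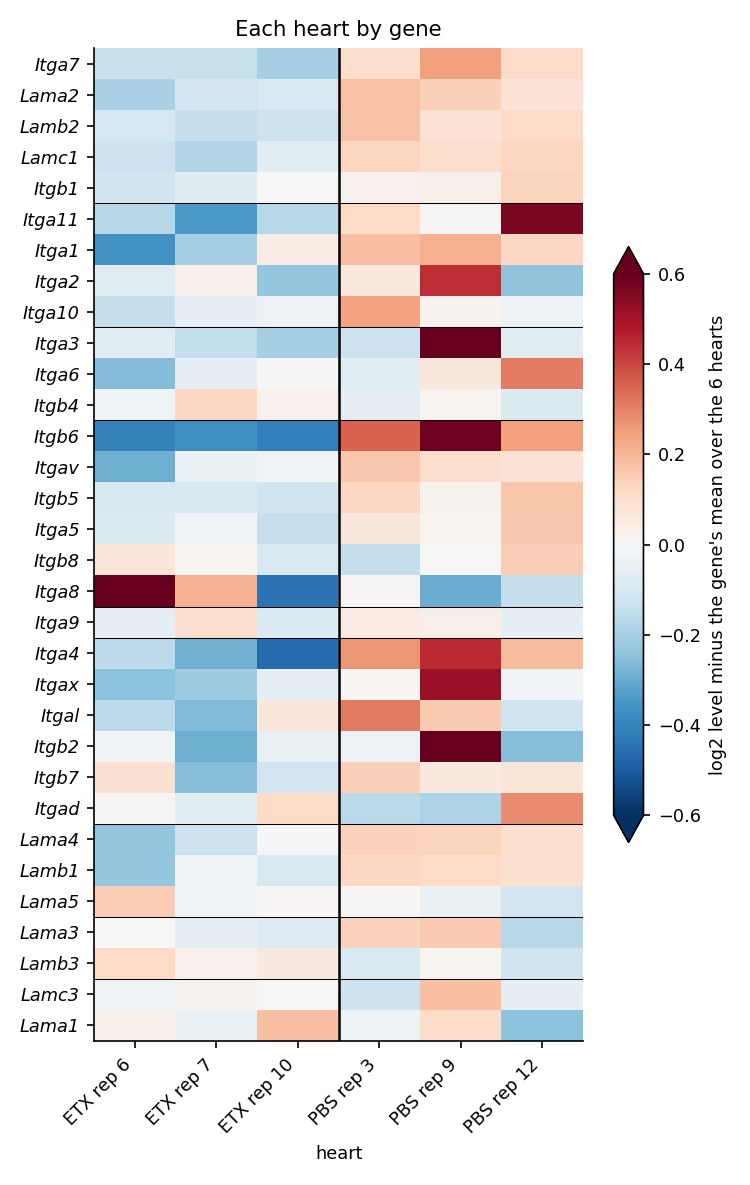
Log2 level of each tested gene (down the page) in each heart (ETX left, PBS right), as the deviation from that gene's mean over the 6 hearts; colours saturate at 0.6 in either direction. The ETX columns are mostly blue and the PBS columns mostly red for muscle subunits, Itgb6, Itga4, Lama4 and Lamb1, while Itga8 and Itgb2 vary within a group.

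Itgb6 encodes beta 6, which pairs with the alpha v chain, is known from epithelia and frees TGF-beta from its latent complex. It fell to 5.61, 5.64 and 5.60 in ETX replicates 6, 7 and 10, against 6.36, 6.59 and 6.25 in PBS replicates 3, 9 and 12. The ETX hearts lay close together, and the gap to the lowest PBS heart was 0.61. The means were 5.62 ± 0.02 in ETX and 6.40 ± 0.17 in PBS (SD, n = 3 each), a log2 difference of -0.79 with a standard error of 0.09, or 1.72-fold lower (limma adjusted p = 0.00836). PBS replicate 9, the heart with the highest lung-marker score, had the highest Itgb6. PBS replicate 12, with a lung-marker score of 3.58, lay 0.64 above the ETX mean. The part of lung tissue in the Itgb6 difference was not tested. Adjusted for the lung-marker score the log2 difference of Itgb6 was -0.62 (limma adjusted p = 0.0406). With PBS replicate 12 as the single PBS heart it was -0.64 and did not pass (limma adjusted p = 0.0761). Itgb6 was called in all 6 fits that left out 1 heart (limma adjusted p = 0.013 to 0.0373).

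Itga4 encodes alpha 4, which pairs with beta 1 or beta 7 and binds VCAM-1 and fibronectin, on leukocytes and on some cells of the heart wall. It fell to 4.88, 4.75 and 4.58 in ETX replicates 6, 7 and 10, against 5.30, 5.49 and 5.23 in PBS replicates 3, 9 and 12. The groups did not overlap, with a gap of 0.35. Itga4 averaged 4.74 ± 0.15 in ETX and 5.34 ± 0.13 in PBS (SD, n = 3 each), a log2 difference of -0.60 with a standard error of 0.10, or 1.52-fold lower (limma adjusted p = 0.0256). The call was lost in 4 of the 6 fits that left out 1 heart. The limma adjusted p was 0.0939 without ETX replicate 7, 0.0681 without ETX replicate 10, 0.0709 without PBS replicate 3 and 0.0527 without PBS replicate 9, while the difference in these fits lay between -0.62 and -0.53. Adjusted for the lung-marker score the difference was -0.48 (limma adjusted p = 0.122), with PBS replicate 12 alone as PBS it was -0.49 (0.163), and adjusted for the atrial-marker score -0.62 (0.0559).

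The RefSeq promoters of the called genes, and that of the muscle laminin chain Lama2 described next, are shown so that the genes behind these differences can be seen. Each is 300 bases on GRCm38.p6, from 250 before the start of transcription to 50 after it, read 5′ to 3′ on the gene's strand. Itgb6 lies at chr2:60722554-60722853 on the minus strand (the further upstream of 2 listed starts), Itga4 at chr2:79255176-79255475 on the plus strand and Lama2 at chr10:27616893-27617192 on the minus strand. Capitals mark a GC box.
Itgb6: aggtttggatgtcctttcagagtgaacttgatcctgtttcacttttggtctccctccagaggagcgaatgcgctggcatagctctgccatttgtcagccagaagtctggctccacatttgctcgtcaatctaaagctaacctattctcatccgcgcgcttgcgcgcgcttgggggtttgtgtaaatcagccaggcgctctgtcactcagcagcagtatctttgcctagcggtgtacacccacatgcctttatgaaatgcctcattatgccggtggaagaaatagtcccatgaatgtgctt
Itga4: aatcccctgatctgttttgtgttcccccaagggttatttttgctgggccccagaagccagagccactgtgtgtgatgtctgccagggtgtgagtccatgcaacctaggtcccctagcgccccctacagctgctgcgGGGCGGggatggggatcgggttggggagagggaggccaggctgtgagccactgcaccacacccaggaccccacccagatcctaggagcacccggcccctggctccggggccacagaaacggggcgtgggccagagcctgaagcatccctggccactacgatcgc
Lama2: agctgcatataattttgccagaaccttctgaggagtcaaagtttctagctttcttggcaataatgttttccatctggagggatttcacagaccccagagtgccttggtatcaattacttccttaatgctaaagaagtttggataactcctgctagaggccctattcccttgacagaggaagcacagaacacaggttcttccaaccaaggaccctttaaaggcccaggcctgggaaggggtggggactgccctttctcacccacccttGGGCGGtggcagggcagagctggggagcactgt
The motifs searched, on both strands, were the TATA box (TATAAA), the GC box (GGGCGG), the AP-1 site (TGANTCA), an Ets site (CCGGAA) and the nuclear receptor hexamer (AGGTCA). Of these motifs the Itgb6 window held none and the other windows held the GC box alone, which begins 114 bases before the start in Itga4 and at base 18 of the transcript in Lama2. RefSeq promoters were found for 21 of the 33 genes, 24 windows in all. The GC box was in 11 of them (45.8%, against 35.7% of all 32851 promoters), the AP-1 site in 3 (12.5%, against 7.81%) and the Ets site in 2 (8.33%, against 14.9%). The TATA box and that hexamer were in 0, against 13.6% and 16.3% of all promoters. These matches describe the letters in the windows.

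Among the laminins, 5 chains of muscle and vessel basement membranes, Lama2, Lama4, Lamb1, Lamb2 and Lamc1, lay lower in all 3 ETX hearts than in any PBS heart. The other 5, which include the vascular chain Lama5, did not, and that order was shown by 16.1% of all genes. None of the 10 laminin chains was called by limma. At an unadjusted p under 0.05, 5 were lower and 0 higher, where 13.1% of all genes were lower. Lama2 is the alpha chain of muscle laminin, whose loss causes a congenital muscular dystrophy. It was at 8.78, 8.86 and 8.88 in ETX, against 9.15, 9.11 and 9.06 in PBS, a log2 difference of -0.27 with a standard error of 0.07 (limma adjusted p = 0.0643). Lamb2, the beta chain that joins Lama2 at mature muscle membranes, was at 7.97, 7.93 and 7.96 in ETX, against 8.25, 8.16 and 8.19 in PBS, a difference of -0.25 (0.0681). Both groups were tight, with SDs of 0.02 in ETX and 0.05 in PBS for Lamb2.

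Lamc1 is the gamma chain shared by most laminins. It was at 9.57, 9.52 and 9.63 in ETX and 9.82, 9.80 and 9.82 in PBS, a log2 difference of -0.24 with a standard error of 0.06 (limma adjusted p = 0.0754). Lama4, the alpha chain of capillary and cardiomyocyte laminin, was at 8.37, 8.47 and 8.59 in ETX and 8.74, 8.73 and 8.70 in PBS (-0.25, limma adjusted p = 0.112). Lamb1, its usual beta partner, was at 8.56, 8.78 and 8.70 in ETX and 8.92, 8.91 and 8.89 in PBS (-0.23, limma adjusted p = 0.132). For these 3 chains the PBS hearts lay within a narrow band, and the ETX hearts were spread below it, with ETX replicate 6 lowest for Lama4 and Lamb1 and ETX replicate 7 lowest for Lamc1. In PBS replicate 12, where the lung markers averaged 3.58, the 5 chains lay 0.21 to 0.25 above their ETX means.

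Lama5, the alpha chain of mature endothelial and epithelial laminin, ran the other way on average, at 6.74, 6.57 and 6.60 in ETX and 6.60, 6.55 and 6.48 in PBS (log2 difference 0.09, standard error 0.07, limma adjusted p = 0.503). Its groups overlapped, and without ETX replicate 6 the difference was 0.04. Of the epithelial and restricted chains, Lamb3 was at 5.05, 4.96 and 4.99 in ETX and 4.84, 4.95 and 4.81 in PBS, with a gap between the groups of 0.01 (difference 0.13, limma adjusted p = 0.308). Lama1, Lama3 and Lamc3 differed by 0.11, -0.09 and 0.00093 with overlapping groups, and their limma adjusted p lay at 0.577, 0.651 and 0.996. A difference between Lama2 and Lama5 in their response was not tested.

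**Figure D3:**
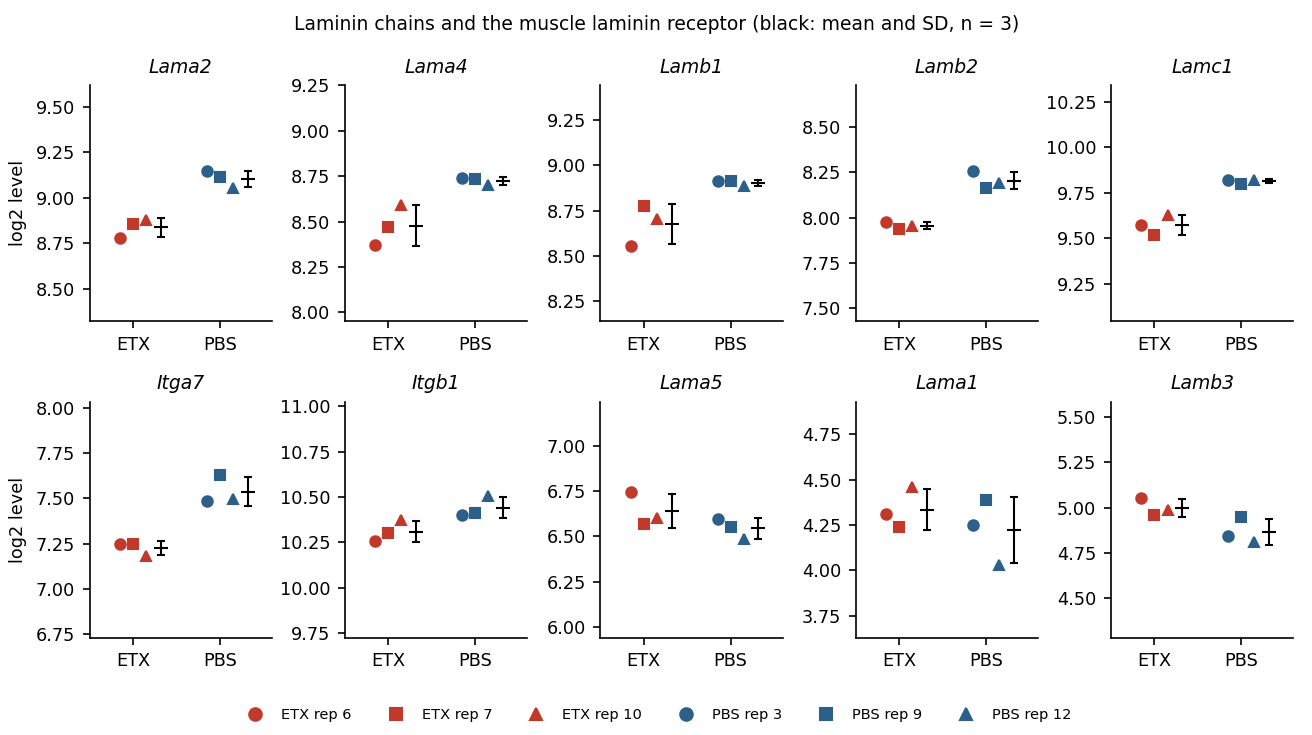
Log2 level per heart (y axis) of 8 laminin chains and the 2 chains of the muscle laminin receptor, ETX left and PBS right in each panel; symbols are hearts and black bars the mean with its SD over 3 hearts. Lama2, Lama4, Lamb1, Lamb2, Lamc1, Itga7 and Itgb1 sit lower in every ETX heart than in any PBS heart, and Lama5 and Lama1 overlap.

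Both chains of the muscle laminin receptor lay lower in every ETX heart than in any PBS heart, without a call. Itga7, the alpha chain that muscle uses to bind laminin, was at 7.25, 7.25 and 7.18 in ETX replicates 6, 7 and 10, against 7.49, 7.63 and 7.50 in PBS replicates 3, 9 and 12. The groups were apart by 0.24. Its means were 7.23 ± 0.04 in ETX and 7.54 ± 0.08 in PBS (SD, n = 3 each), a log2 difference of -0.31 with a standard error of 0.07 (limma adjusted p = 0.0516). Its partner Itgb1, which joins many alpha chains, was at 10.26, 10.30 and 10.37 in ETX and 10.40, 10.41 and 10.51 in PBS, a difference of -0.13 (limma adjusted p = 0.305), with a gap of 0.03 between the groups. Together with Lama2, Lamb2 and Lamc1 these were the 5 muscle subunits. All 5 lay below 0 with no overlap between the groups, at a median of -0.25. That order was shown by 16.1% of all genes. Limma called 0 of the 5, and 4 had an unadjusted p under 0.05, against 13.1% of all genes lower at that p. Itga7, Lama2, Lamb2 and Lamc1 passed in 2 alternatives, when only genes above the median of gene means were tested (limma adjusted p = 0.0271 to 0.0417) and with a trended, robust prior (0.0227 to 0.0314). These 2 alternatives called 909 of 9969 and 957 of 14953 genes, against 533 of 14953 before. Itga7 also passed with arrays centred on their median (limma adjusted p = 0.0367). None of these 4 genes passed in the 6 fits that left out 1 heart (limma adjusted p = 0.0922 to 0.226). Adjusted for the lung-marker score none passed either (limma adjusted p = 0.194 to 0.23).

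The other laminin-binding chains differed less clearly. Itga6, found on endothelium and epithelia, was at 7.57, 7.77 and 7.83 in ETX and 7.77, 7.89 and 8.14 in PBS, with overlap (log2 difference -0.21, limma adjusted p = 0.324). Its difference was -0.11 without PBS replicate 12 and -0.13 without ETX replicate 6. Itga3 was at 5.50 to 5.63 in ETX and at 5.57 and 5.64 in PBS replicates 3 and 12. It reached 6.31 in PBS replicate 9, the heart with the highest lung-marker score. Its difference of -0.27 (limma adjusted p = 0.41) was -0.041 without that heart and 0.028 adjusted for the lung-marker score. Itgb4, the hemidesmosome partner of alpha 6, differed by 0.08 (limma adjusted p = 0.532).

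All 4 collagen-binding chains lay below 0, with a median of -0.26 and none called by limma. At an unadjusted p under 0.05, 2 were lower, against 13.1% of all genes. Itga1, of smooth muscle and capillaries, was at 8.003, 8.17 and 8.41 in ETX and 8.55, 8.58 and 8.49 in PBS, a log2 difference of -0.34 with a standard error of 0.10 (limma adjusted p = 0.112). ETX replicate 6 was farthest from PBS, and ETX replicate 10 lay 0.08 under the lowest PBS heart. Itga11, a fibrillar collagen receptor of fibroblasts, was at 4.28, 4.11 and 4.29 in ETX and 4.57, 4.46 and 5.02 in PBS (-0.46, standard error 0.14, limma adjusted p = 0.113). The highest value was that of PBS replicate 12. Without that heart the difference was -0.29, and adjusted for the lung-marker score it was -0.74 and passed (limma adjusted p = 0.0406). Itga2 and Itga10 overlapped between groups, at -0.18 and -0.15.

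The chains that read the RGD sequence of fibronectin and vitronectin held Itgb6. Of the other 5, Itgav, Itgb5 and Itga5 lay lower in every ETX heart than in any PBS heart, an order that 16.1% of all genes showed. None of these 5 was called. Itgav, the alpha chain that pairs with beta 5, beta 6 and beta 8, was at 7.24, 7.49 and 7.51 in ETX and 7.69, 7.64 and 7.62 in PBS (log2 difference -0.23, limma adjusted p = 0.165), and its difference was -0.15 without ETX replicate 6. Itgb5, a vitronectin receptor chain, was at 8.07, 8.07 and 8.05 in ETX and 8.29, 8.19 and 8.34 in PBS (-0.21, limma adjusted p = 0.125). Itga5, the fibronectin receptor chain, was at 7.42, 7.49 and 7.37 in ETX and 7.58, 7.53 and 7.67 in PBS (-0.16, limma adjusted p = 0.222), with a gap of 0.04. Of these, Itgb5 was the most even within ETX, with an SD of 0.01. Itgb8, which also frees TGF-beta, differed by -0.0037 (limma adjusted p = 0.985).

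Itga8, a nephronectin receptor of smooth muscle and mesenchyme, had the widest spread of the RGD group in ETX. It was at 7.28, 6.83 and 6.18 in ETX replicates 6, 7 and 10, against 6.63, 6.32 and 6.47 in PBS replicates 3, 9 and 12. The ETX hearts lay on both sides of the PBS hearts. The difference of 0.29 had a standard error of 0.24 (limma adjusted p = 0.534). ETX replicates 6 and 7 and PBS replicate 3, the hearts with high atrial markers, held the 3 highest values. Adjusted for the atrial-marker score the difference was 0.17, and without those 3 hearts, which leaves 1 ETX heart, it was -0.22 (limma adjusted p = 0.69). Itga9, a tenascin receptor chain of lymphatic and smooth muscle cells, was at 7.87, 8.02 and 7.84 in ETX and 7.97, 7.96 and 7.87 in PBS, a difference of -0.02 (standard error 0.07, limma adjusted p = 0.902).

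Of the 7 leukocyte chains, 6 were tested and Itga4 was called, where 2.43% of all genes were called lower. The median of the 6 was -0.23, and 5 lay below 0, as did 51.6% of all genes. In 2 of the 6, Itga4 and Itgax, every ETX heart lay below every PBS heart, an order that 16.1% of all genes showed. Itgax, the CD11c chain of dendritic cells and macrophages, was at 3.33, 3.36 and 3.52 in ETX and 3.59, 4.09 and 3.56 in PBS (log2 difference -0.34, limma adjusted p = 0.207). Its ETX mean of 3.40 lay under the level that counts as dim, so no fold is given. PBS replicate 9 stood above the rest, and the difference was -0.17 without it and -0.095 adjusted for the lung-marker score. Itgb2, the beta chain common to the CD11 family, was at 4.66, 4.39 and 4.63 in ETX and 4.64, 5.32 and 4.42 in PBS, where again PBS replicate 9 alone was high (-0.23, limma adjusted p = 0.563). Without PBS replicate 9 its difference was 0.029, and adjusted for the lung-marker score it was 0.20. Itgal, the LFA-1 chain, was at 4.25, 4.14 and 4.47 in ETX and 4.72, 4.56 and 4.28 in PBS, with overlap (-0.23, limma adjusted p = 0.331). Itgb7 was at 3.90, 3.55 and 3.69 in ETX and 3.95, 3.87 and 3.88 in PBS (-0.18, limma adjusted p = 0.299). Itgad, a macrophage chain, differed by 0.04 (limma adjusted p = 0.882), and its second cluster by 0.16.

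Leukocyte markers are given beside these chains. All 12 macrophage markers lay below 0 and 5 were called lower, where 2.43% of all genes were called lower. Their mean levels were 6.32 to 6.44 in ETX and 6.78 to 7.09 in PBS. Of 10 lymphocyte markers found 5 were bright enough to test and 1, Cd4, was called lower, with mean levels over the 10 of 3.54 to 3.56 in ETX and 3.58 to 3.86 in PBS. The 8 neutrophil markers averaged 4.11 to 4.58 in ETX, and 5.12, 6.21 and 3.82 in PBS replicates 3, 9 and 12. PBS replicate 12 thus lay below every ETX heart, and the PBS hearts with lung transcripts lay above. Dendritic cell markers averaged 3.62 to 3.75 in ETX and 3.64 to 3.75 in PBS. No marker is at 0 on this scale, and their part in the leukocyte chains was not tested.

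**Figure D4:**
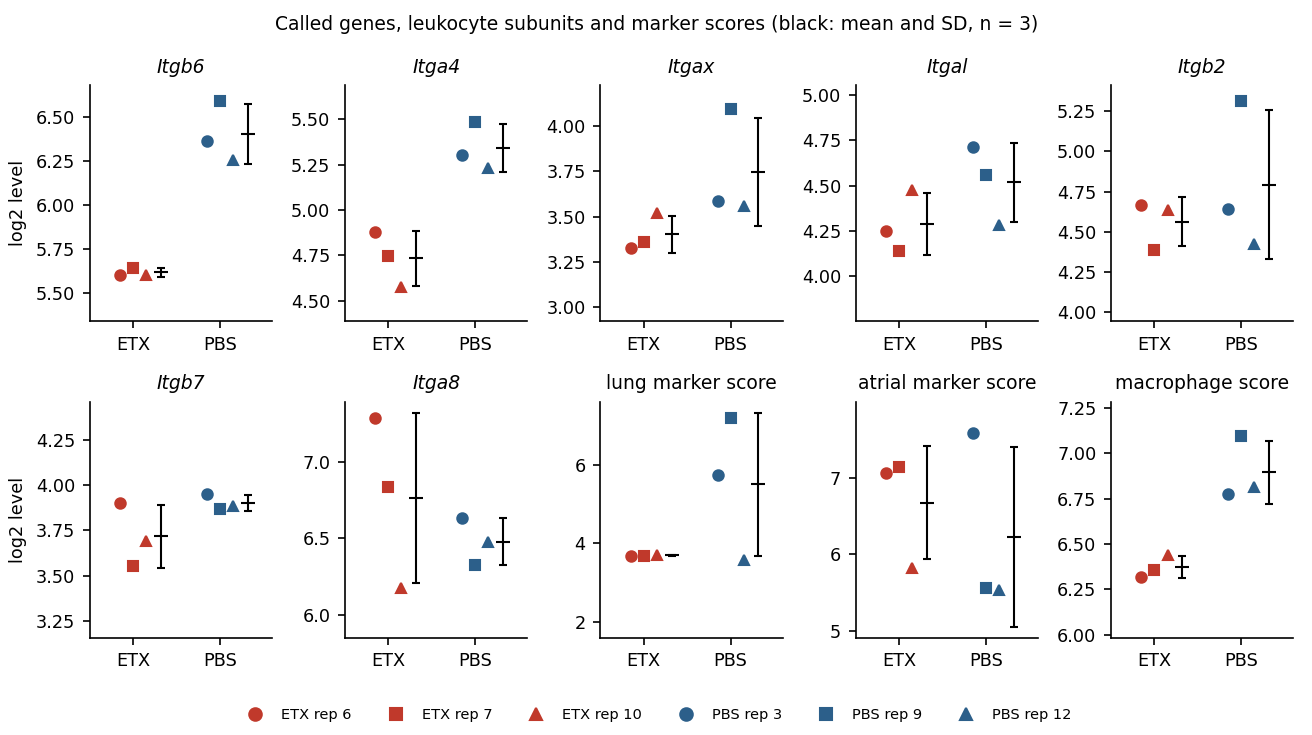
Log2 level per heart (y axis) of the 2 called genes, of 4 further leukocyte chains and of Itga8, with the mean log2 level of lung, atrial and macrophage markers; ETX left and PBS right, symbols are hearts, black bars the mean with its SD over 3 hearts. Itgb6 and Itga4 are separate between groups, Itgb2 is high in PBS replicate 9 alone (5.32), where the lung-marker score is highest (7.21), and Itga8 is high in ETX replicates 6 and 7 (7.28 and 6.83).

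Of the basement membrane partners of laminin, 13 were tested and 4 were called and fell, Agrn, Col15a1, Nid1 and Hspg2. Of all genes 2.43% were called lower. Agrn, the proteoglycan agrin that links laminin to dystroglycan, was at 6.26, 6.29 and 6.38 in ETX and 6.92, 6.86 and 6.95 in PBS (1.52-fold lower, limma adjusted p = 0.00714). Col15a1, a collagen of muscle and capillary basement membranes, was at 8.23, 8.45 and 8.40 in ETX and 9.14, 8.98 and 9.02 in PBS (1.61-fold lower, limma adjusted p = 0.00857). Both were called in all 6 fits without 1 heart. Nid1, nidogen, which joins the laminin gamma 1 chain to collagen IV, was at 9.22, 9.25 and 9.38 in ETX and 9.69, 9.71 and 9.78 in PBS (1.36-fold lower, limma adjusted p = 0.0226). Its limma adjusted p was 0.0729 without ETX replicate 6, 0.0926 without ETX replicate 7, 0.0595 without PBS replicate 3 and 0.0604 without PBS replicate 12, while its difference lay between -0.47 and -0.42 in these fits, against -0.45 over all hearts. Hspg2, the proteoglycan perlecan, was at 9.41, 9.37 and 9.38 in ETX and 9.74, 9.74 and 9.70 in PBS (1.27-fold lower, limma adjusted p = 0.0302). It lost the call without any 1 of the hearts (limma adjusted p = 0.0622 to 0.112), while its difference stayed between -0.36 and -0.33. Adjusted for the lung-marker score, Agrn passed (limma adjusted p = 0.0406), and Col15a1 (0.055), Nid1 (0.084) and Hspg2 (0.135) did not. Their log2 differences in that fit were -0.64, -0.70, -0.49 and -0.32, against -0.60, -0.69, -0.45 and -0.34 without the adjustment. The list had a median of -0.13, with 11 of 13 below 0.

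The dystroglycan complex, the other laminin receptor of muscle, had 10 of 15 listed genes measured and 0 called by limma. At an unadjusted p under 0.05, 4 were lower, against 13.1% of all genes. Its median was -0.07. Utrn, utrophin, was at 7.55, 7.42 and 7.48 in ETX and 7.74, 7.82 and 7.71 in PBS (log2 difference -0.27, limma adjusted p = 0.07). Sgcd, delta-sarcoglycan, differed by -0.29 (limma adjusted p = 0.0719) and Dtna, dystrobrevin, by -0.19 (0.139), both without overlap. In 6 of the 10 every ETX heart lay below every PBS heart and in 1 above, against 16.1% and 11.6% of all genes. Dag1, dystroglycan itself, differed by -0.06 with overlapping groups (limma adjusted p = 0.713).

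Inside the cell, the 19 tested adaptors and kinases of integrins had a median of -0.09 and 0 calls by limma. At an unadjusted p under 0.05, 4 were lower and 1 higher, where 13.1% of all genes were lower and 8.86% higher. Vcl, vinculin, which couples talin to actin, was at 8.33, 8.45 and 8.43 in ETX and 8.67, 8.69 and 8.75 in PBS (log2 difference -0.30, limma adjusted p = 0.0514). Ptk2b, the focal adhesion kinase homologue PYK2, was at 5.85, 5.73 and 5.88 in ETX and 5.52, 5.53 and 5.57 in PBS (0.28, limma adjusted p = 0.0667). Itgb1bp2, the muscle protein melusin that binds the beta 1 tail, was at 8.49, 8.44 and 8.22 in ETX and 8.73, 8.66 and 8.53 in PBS (-0.26, limma adjusted p = 0.153). Ilk and Fermt2, an integrin-linked kinase and a kindlin, differed by -0.0084 and -0.11 (limma adjusted p = 0.957 and 0.358).

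Among 17 tested further ligands of integrins 1 was called and fell, where 2.43% of all genes were called lower. Vtn, vitronectin, the ligand of alpha v with beta 5, was at 6.95, 6.71 and 6.91 in ETX and 7.73, 7.76 and 7.79 in PBS, 1.87-fold lower (limma adjusted p = 0.00487), and was called in all 6 fits without 1 heart. The list had a median of -0.05. Fn1, fibronectin, and Vcam1, the ligand of alpha 4, differed by 0.04 and -0.002 with overlapping groups (limma adjusted p = 0.807 and 0.988). Icam1, the ligand of LFA-1, was at 6.23, 5.98 and 6.27 in ETX and 6.66, 7.80 and 6.26 in PBS, high in PBS replicate 9 (-0.75, limma adjusted p = 0.239). Its difference was -0.30 without that heart and -0.013 adjusted for the lung-marker score.

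**Figure D5:**
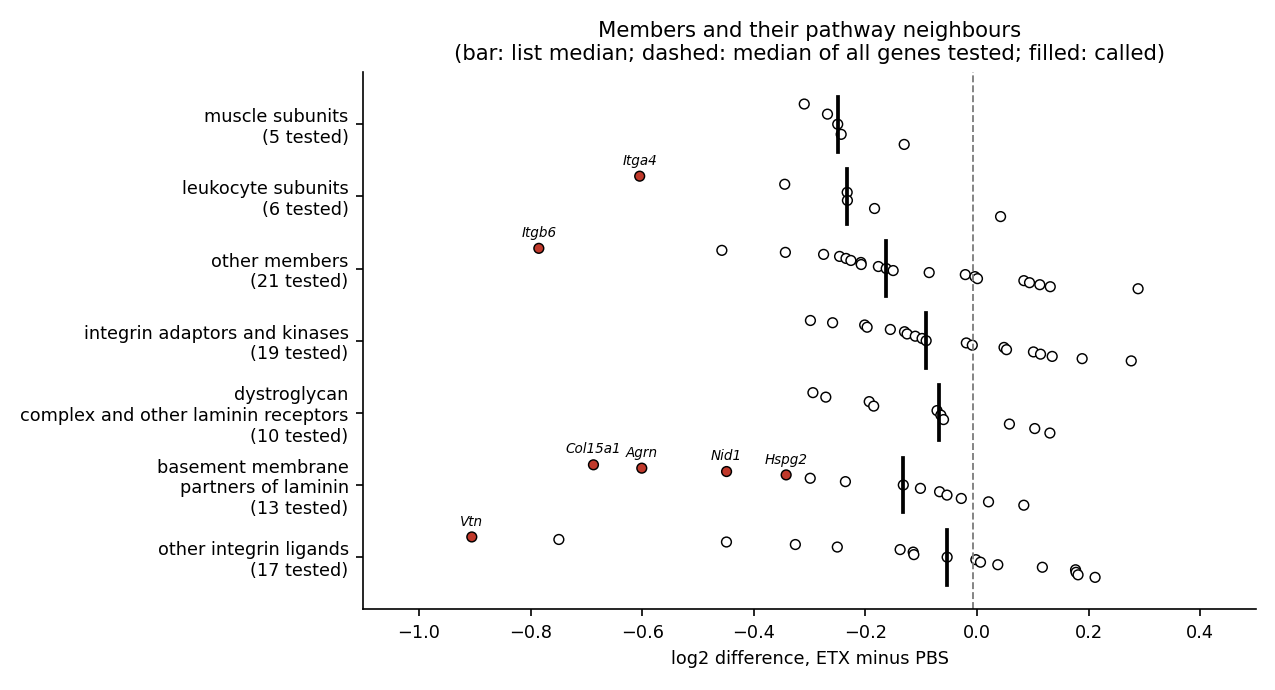
Log2 difference, ETX minus PBS (x axis), of each tested integrin and laminin gene, split into muscle subunits, leukocyte subunits and the other 21, and of 4 lists of pathway neighbours (down the page); thick bars are list medians, the dashed line is the median of all genes tested, and filled points passed an adjusted p of 0.05. Over the 7 rows plotted, medians run from -0.25 for muscle subunits to -0.05 for other integrin ligands, and 4 of the 7 filled points are basement membrane partners.

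Endothelial and fibroblast markers, from cells that make basement membrane, lay mostly below 0. Of 12 endothelial markers 11 lay below 0 and 3 were called lower, where 2.43% of all genes were called lower. Their mean levels were 8.45 to 8.58 in ETX and 8.71 to 8.72 in PBS. Of 8 fibroblast markers 7 lay below 0 and 1, Pdgfra, was called lower. Mean levels of the fibroblast list overlapped, at 9.336 to 9.497 in ETX and 9.495 to 9.650 in PBS. Smooth muscle and pericyte markers also overlapped, at 7.94 to 8.20 in ETX and 8.11 to 8.20 in PBS, with 0 of 10 called by limma. At an unadjusted p under 0.05, 3 of them were lower, against 13.1% of all genes. Of the cardiomyocyte markers 9 of 10 lay below 0, with a median of -0.08 and 0 called by limma (1 lower and 1 higher at an unadjusted p under 0.05). The Schwann cell list had 2 tested genes. The part of these cell types in the integrin and laminin differences was not tested.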

How the data were processed

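Each of 6 hearts gave total RNA for 1 Affymetrix whole-transcript array; the labels give its group and replicate number. The deposited log2 values were made by the authors with Affymetrix Expression Console and RMA (version not stated), per the submitters' processing notes. RMA subtracts a background, equalises the arrays' quantiles and combines probes, and it compresses differences of dim genes. No source used here gives the annotation build, filters or detection calls, so no coordinates of array clusters are given, only those of the RefSeq promoters. The number of arrays limits the precision.

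Of 35556 transcript clusters, 21789 had 1 gene symbol in a platform annotation table; 21698 of these were found in RefSeq by gene identifier, and 0 symbols changed. The brightest cluster stood for a gene (19938 genes; Itgad alone of the integrins and laminins had a second). ETX was compared with PBS in limma 3.58.1 (lmFit and eBayes, two-sided, R 4.3.3) over 14953 genes. The integrins and laminins, the roles, the 4 pathway lists and the 11 marker lists were chosen with earlier results of these data known; lists are described by counts and medians, without a set test. Values in every heart are given for members with an unadjusted p under 0.05 and for a fixed set. Itga8, Itga3, Itgb7, Lamb3, Ilk, Fermt2, Dag1, Fn1, Vcam1 and Icam1 were named after their values were seen. In a simulation of ETX against PBS over 14953 genes, 94 of 100 genes changed 1.5-fold and 99 of 100 changed 2-fold were recovered, 15 others were called, and 1 was called when nothing was changed. Its noise was drawn for each gene on its own from the variances that limma estimated. It held no lung or atrial signal shared across genes. All tested integrins and laminins except Itgb6 and Itga4 differed by less than 1.5-fold, so these rates do not describe them. Alternatives were other filters, normalizations, moderation and weights, other cluster rules, hearts left out, and lung or atrial marker scores (mean log2 level of the list per heart) as covariates; the fit without the atrial hearts was chosen after seeing the data. Promoters are RefSeq, GRCm38.p6. Plots used matplotlib 3.10.9 (Python 3.11.15).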

Additional observations from a re-analysis of the deposited data

How the results depend on the processing

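The counts of called genes depended on the processing, whereas the median of the integrin and laminin genes moved little. Of these genes 2 were called over all hearts, and 533 genes overall. Testing only genes above the median of gene means gave 6 and 909, a trended and robust prior 6 and 957 (in both, Itgb6, Itga4, Itga7, Lama2, Lamb2 and Lamc1), all transcript clusters 1 and 337, the atrial-marker score as covariate 1 and 145, and an unmoderated linear model 0 and 0. With the lung-marker score as covariate the counts were 2 and 80. Without PBS replicates 3 and 9 they were 0 and 19, and without ETX replicates 6 and 7 and PBS replicate 3, an alternative added after seeing the data, 0 and 2; both leave a group with 1 heart, assumed to vary like the others. Leaving out 1 heart gave 1 to 2 called integrin and laminin genes and 94 to 241 overall. The median of the integrin and laminin genes lay between -0.24 and -0.18 in every alternative run. Of 528 values of 28 named genes, 463 kept direction and side of the threshold, 44 lost the call, 10 gained it and 11 turned direction. Those that turned were uncalled: Itga3 (0.028 with the lung-marker score), Itga9 (0.014 after quantile normalization, 0.015 without ETX replicate 10, 0.041 without PBS replicates 3 and 9, 0.025 with the lung-marker score), Itgal (0.0021 without PBS replicates 3 and 9, 0.052 without the atrial hearts), Itgb2 (0.029 without PBS replicate 9, 0.14 without PBS replicates 3 and 9, 0.20 with the lung-marker score) and Itga8 (-0.22 without the atrial hearts). With 1 heart left out, Itga9 ran from -0.078 to 0.015, Itgal from -0.35 to -0.13, Itgb2 from -0.42 to 0.029 and Itga8 from 0.029 to 0.58. The cause of these changes was not tested, apart from the fewer hearts or genes that an alternative itself uses. No paired analysis was possible because the ETX and PBS hearts share no replicate number. Itgae, which was dim, and Itgax, close to that level, are limited by signal over background.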
